A study of Mus musculus with 125 samples.

Results

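Npy, Serpinb3b, Txndc8, Spz1 and Nat8f2 are 5 mouse genes whose RNA was present in uniparental 2-cell embryos of 1 strain background and nearly absent in those of the other. They were picked by name, from 43421 genes in the count table, for their levels in uniparental embryos, so their levels there are a description and carry no test. In 4 uniparental embryos of the cross JF1/Ms x C57BL/6, Spz1 had no count and Nat8f2 had counts in 1, while Npy, Serpinb3b and Txndc8 reached 550.9, 419.0 and 31.9 CPM (counts scaled to the library total). In 39 uniparental embryos on the C57BL/6 side the order was turned round, with at least 10 counts of Spz1 in 39 and of Nat8f2 in 38, and at least 10 counts of Npy in 1 and of Serpinb3b and Txndc8 in 0. All 5 were counted in embryos with both parental genomes. There Txndc8 and Npy were lower in 2PN embryos of JF1/Ms x C57BL/6 than in those of the reciprocal cross. Among uniparental embryos the direction was the reverse, with higher means of both genes in those of JF1/Ms x C57BL/6.

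Neuropeptide Y (Npy) is a secreted peptide of neurons and endocrine cells, known for driving food intake, that acts through G protein-coupled receptors. Serpinb3b belongs to the clade B serpins, intracellular inhibitors that trap a protease in a covalent complex. Txndc8 is a thioredoxin of spermatids, a small protein that reduces disulfide bonds. Spz1 is a basic helix-loop-helix zipper transcription factor of the testis, and Nat8f2 is a member of the N-acetyltransferase 8 family. In mouse embryos the 2-cell stage is when the genome inherited from both parents starts to be transcribed broadly while RNA stored in the oocyte is removed.

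The study asked how embryos whose parental genomes share 1 pronucleus (1PN) compare with embryos in which each parent's genome has a pronucleus of its own (2PN). Zygotes were chosen 10 h after fertilization and 2-cell embryos collected at 34 h, per the labels' protocols, which also describe removal of the second polar body for C57BL/6 x JF1/Ms zygotes. J1PN uniparental embryos (4) and B1PN uniparental embryos (8) were scored as 1PN and called parthenote in silico by the submitters, in the crosses JF1/Ms x C57BL/6 and C57BL/6 x JF1/Ms. P embryos (31) were C57BL/6 parthenotes, activated without sperm. J1PN (3) and J2PN (21) embryos were hybrids of JF1/Ms x C57BL/6, and B1PN (11) and B2PN (43) embryos hybrids of C57BL/6 x JF1/Ms, which carry both genomes. Which strain gave the oocyte in each cross, which embryos share parents, and how the in silico call was made are not stated in the labels. Reads were counted on a genome build of C57BL/6 origin, and how well JF1/Ms reads were placed on it was not tested.

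The 121 libraries held 533276 to 4887274 counts, with medians of 2522056 in J2PN and 3867740 in B2PN embryos. Summed markers of the oocyte (7 genes) and of 2-cell transcription (6 genes) were above 0 in every group. Uniparental J1PN embryos 1 and 2 stood apart, with 14.2 and 171.9 CPM of the 2-cell markers against 4254 and 3455 CPM in embryos 3 and 7, and with 4614 and 6701 CPM of the oocyte markers against 2427 and 2067 CPM. Of 4 paternally expressed imprinted genes, chosen after the data were seen, J2PN embryo 8 had 17.4 CPM and B2PN embryo 30 had 0.887 CPM in sum, against medians of 167.9 CPM in J2PN and 171.5 CPM in B2PN embryos. In these 4 genes the 2 libraries went against their labels, and the tests and counts between 2PN groups and the main stage relations are also given without them. Of the members, J2PN embryo 8 had 12.15 CPM of Spz1 and 130.4 CPM of Nat8f2, against at most 0 and 7.48 CPM in J1PN uniparental embryos. B2PN embryo 30 had 0.591 CPM of Npy and 0 of Serpinb3b and Txndc8. Whether either embryo was uniparental was not tested. Whether fewer transcripts came from fewer active cells or less RNA per cell cannot be told apart in a whole embryo.

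**Figure D1:**
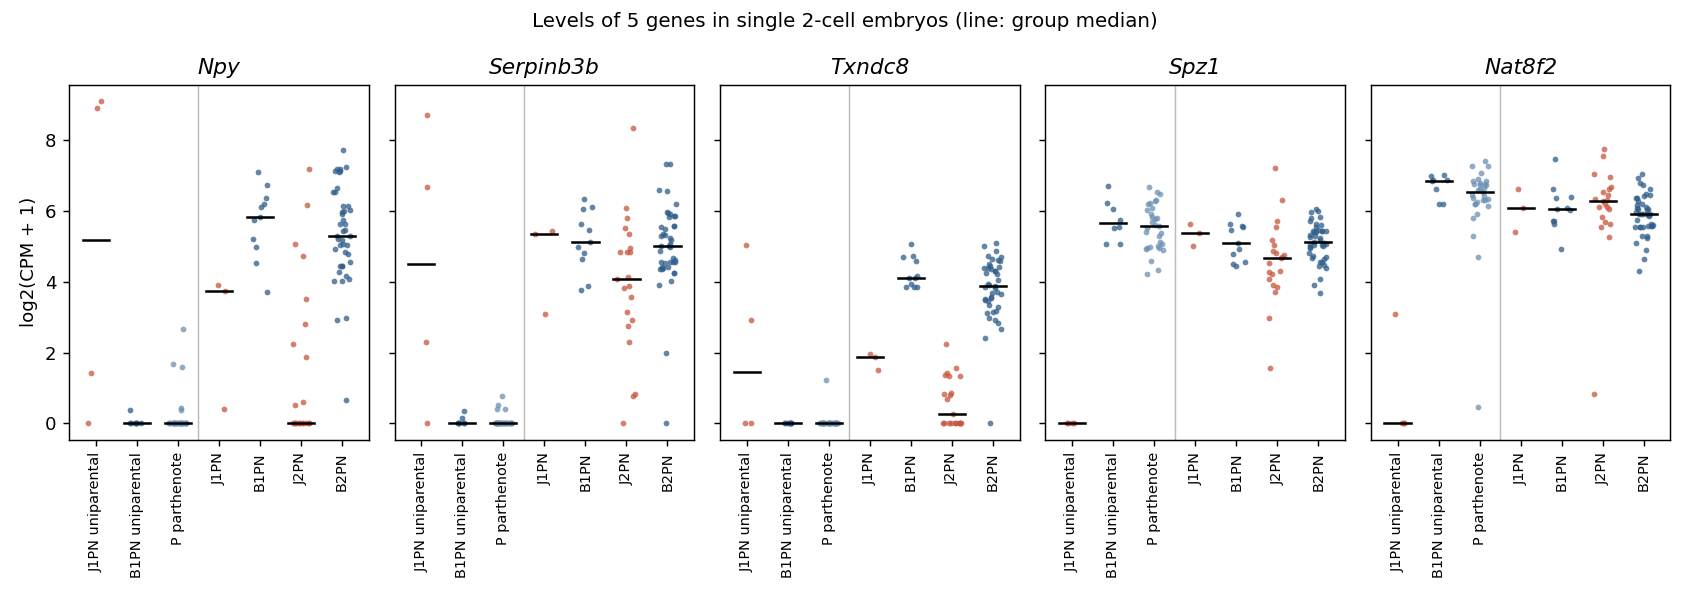
Each point is 1 embryo, the vertical axis is log2(CPM + 1) and the black line is the group median. Uniparental embryos stand left of the grey line and hybrids right of it; red marks JF1/Ms x C57BL/6, dark blue C57BL/6 x JF1/Ms and light blue C57BL/6 parthenotes. Npy, Serpinb3b and Txndc8 lie at or near 0 in B1PN uniparental and P embryos, and Spz1 lies at 0 in the 4 J1PN uniparental embryos.

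The sequences around the start of 3 of the genes are shown because the results turn on them: Npy and Txndc8, which differed between reciprocal hybrids, and Spz1, the gene with no count in J1PN uniparental embryos. Each runs from 250 bases before to 50 bases after the RefSeq start in the GRCm38.p6 reference, the C57BL/6J sequence, so it does not show the JF1/Ms allele. Capitals mark matches on either strand to the TATA box TATAAA, to CCAAT, and to the GC box GGGCGG. Npy lies on the plus strand at chr6:49822460-49822759, Txndc8 on the minus strand at chr4:58009077-58009376 and Spz1 on the minus strand at chr13:92576183-92576482.

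Npy: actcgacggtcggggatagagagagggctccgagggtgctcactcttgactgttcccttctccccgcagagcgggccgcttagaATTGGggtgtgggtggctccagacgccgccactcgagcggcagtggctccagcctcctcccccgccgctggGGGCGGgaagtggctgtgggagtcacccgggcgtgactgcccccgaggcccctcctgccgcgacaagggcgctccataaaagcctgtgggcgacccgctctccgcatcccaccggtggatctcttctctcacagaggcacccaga
Txndc8: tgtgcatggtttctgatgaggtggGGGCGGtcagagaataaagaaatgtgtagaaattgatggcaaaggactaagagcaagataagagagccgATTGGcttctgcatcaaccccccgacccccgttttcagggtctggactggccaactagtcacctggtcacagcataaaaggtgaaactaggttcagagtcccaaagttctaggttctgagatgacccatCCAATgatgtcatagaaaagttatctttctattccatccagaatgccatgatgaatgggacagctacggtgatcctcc
Spz1: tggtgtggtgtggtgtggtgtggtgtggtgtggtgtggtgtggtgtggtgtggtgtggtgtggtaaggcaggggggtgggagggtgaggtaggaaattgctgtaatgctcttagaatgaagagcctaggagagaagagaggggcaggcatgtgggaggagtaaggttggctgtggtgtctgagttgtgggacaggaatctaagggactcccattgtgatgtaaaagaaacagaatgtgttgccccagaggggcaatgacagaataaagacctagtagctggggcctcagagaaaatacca

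The 3 windows differ in base composition. The Npy window held 68.0% G and C with 24 CpG sites, the Txndc8 window 47.0% with 5, and the Spz1 window 52.3% with 0, against medians of 52.7% and 7 over 32851 promoters. Npy and Txndc8 each had CCAAT, found in 37.4% of all these windows, and GGGCGG, found in 35.7%. The Spz1 window opens with a run of repeated tggtg and had none of the 3 motifs. Of the other members, Serpinb3b had TATAAA (13.6% of windows) and Nat8f2 had CCAAT. No motif of the 3 was in all of Npy, Serpinb3b and Txndc8, or in both Spz1 and Nat8f2.

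Npy (ENSMUSG00000029819, chromosome 6, 49822710 to 49829507, GRCm38) had 0, 1.70, 550.9 and 479.8 CPM in J1PN uniparental embryos 1, 2, 3 and 7. In B1PN uniparental embryos it had a single count in 1 of 8, and in P embryos the lowest, median and highest values were 0, 0 and 5.37 CPM, with a mean of 0.330 ± 1.07 (SD, n = 31). The embryos with high Npy were thus the 2 of J1PN uniparental origin that also held 2-cell markers, and both exceeded all 39 embryos on the C57BL/6 side. Without J1PN uniparental embryos 1 and 2, an exclusion made after the data were seen, the mean of that group was 515.4 CPM, against 258.1 ± 298.5 (SD, n = 4) with them. The fitted log2 fold change over P embryos was 9.47 ± 0.79 (SE). Summed markers of neurons and endocrine cells (6 genes) were 360.7 to 448.9 CPM in J1PN uniparental embryos (Snap25, Chgb and Dbh at 0). They were 46.1 to 179.5 CPM in B1PN uniparental (Snap25 at 0) and 26.96 to 124.1 CPM in P embryos (none at 0). Within J1PN uniparental embryos they did not follow Npy, at 415.0, 360.7, 396.2 and 448.9 CPM in embryos 1, 2, 3 and 7. Their part in the result was not tested.

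Serpinb3b (ENSMUSG00000073602, chromosome 1, 107153961 to 107161114) went the same way. J1PN uniparental embryos 1, 2, 3 and 7 had 0, 3.98, 102.1 and 419.0 CPM. B1PN uniparental embryos averaged 0.0504 ± 0.104 CPM (SD, n = 8), with a value above 0.2 CPM in 1, and P embryos 0.0588 ± 0.165 CPM (SD, n = 31), with a highest value of 0.714 CPM. The 3 J1PN uniparental embryos with counts thus stood above every embryo on the C57BL/6 side, by a fitted log2 fold change of 10.34 ± 0.63 (SE) over P embryos for the group. Their mean was 131.3 ± 197.5 CPM (SD, n = 4), and 35.4 CPM without embryo 7.

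Txndc8 (ENSMUSG00000038709, chromosome 4, 57984021 to 58009135) had 0, 0, 6.53 and 31.9 CPM in J1PN uniparental embryos 1, 2, 3 and 7. It had no count in any of the 8 B1PN uniparental embryos and 4 counts, all in 1 embryo, over the 31 P embryos. Taking 3 counts summed over that group as a lower limit, its level in B1PN uniparental embryos was at least 87.8-fold lower than in J1PN uniparental embryos and at least 138.6-fold lower than in B2PN embryos. The J1PN uniparental mean of 9.61 ± 15.2 CPM (SD, n = 4) rests largely on embryo 7 and was 2.18 CPM without it. Such limits cover counting error only, since the reads carry no molecular identifiers.

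Spz1 (ENSMUSG00000046957, chromosome 13, 92574631 to 92576232) had 0 counts in all 4 J1PN uniparental embryos. B1PN uniparental embryos had 32.4, 49.5 and 103.5 CPM as lowest, median and highest values, and P embryos 17.6, 46.8 and 101.8 CPM. Spz1 was the only member whose values in J1PN uniparental embryos and on the C57BL/6 side did not overlap, which held for 4.05% of all tested genes. With the same limit of 3 counts it was at least 185.7-fold lower in J1PN uniparental than in B1PN uniparental embryos and at least 164.7-fold lower than in P embryos. That limit pools all 4 libraries. Embryos 1 and 2, low in 2-cell markers, held 3768466 and 3521234 counts, and embryos 3 and 7 held 1532065 and 1002464. From embryos 3 and 7 alone both bounds would be lower. The 0 was also seen in J1PN uniparental embryos 3 and 7, whose 2-cell markers were high. Summed sperm and testis markers were 4.99 to 20.6 CPM in J1PN uniparental embryos (6 of 10 at 0), 6.28 to 59.5 CPM in B1PN uniparental (1 at 0) and 11.01 to 75.6 CPM in P embryos (none at 0). Summed cumulus and granulosa markers (10 genes) were 0.265 to 4.49 CPM (6 at 0), 3.83 to 71.4 CPM (Fshr and Lhcgr at 0) and 5.57 to 91.4 CPM (Fshr, Lhcgr and Ptx3 at 0) in the same order of groups, and the part of either list in the result was not tested.

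Nat8f2 (ENSMUSG00000033634, chromosome 6, 85865422 to 85869137) had 0, 0, 0 and 7.48 CPM in J1PN uniparental embryos 1, 2, 3 and 7. B1PN uniparental embryos ran over 72.3, 114.7 and 129.5 CPM as lowest, median and highest values, and P embryos over 0.382, 92.3 and 170.8 CPM. P embryo 7, with 0.382 CPM, was the single embryo on that side below 7.48 CPM. The fitted log2 fold change of J1PN uniparental over P embryos was -6.08 ± 0.79 (SE).

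In shares of embryos with at least 10 counts, the 5 genes fell into 2 patterns. Npy, Serpinb3b and Txndc8 passed that level in 2, 3 and 2 of 4 J1PN uniparental embryos and in 1, 0 and 0 of the 39 B1PN uniparental and P embryos. For 0 of 39 the exact 95% interval reaches 9.03%. Spz1 and Nat8f2 passed it in 0 and 0 of 4 J1PN uniparental embryos, where the interval reaches 60.2%, and in 39 and 38 of 39. All 3 uniparental groups were called or labelled parthenote, so each member had counts in some embryos called or labelled parthenote and few or none in others. Over all genes the fit called 30.9% in J1PN uniparental against B1PN uniparental embryos, and 3852 higher and 6628 lower of 24380 against P embryos. Those contrasts chose the members, and nothing about them is read from these numbers.

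Within the C57BL/6 side, B1PN uniparental and P embryos lay on the same side in the 5 genes, as the choice of members from both groups together required. The fitted log2 fold change of B1PN uniparental over P embryos was 0.21 ± 0.28 (SE) for Spz1 and 0.23 ± 0.34 (SE) for Nat8f2. Npy, Serpinb3b and Txndc8 were at or near 0 in both groups. Their values of -2.27 (interval -5.21 to 0.67), -0.37 (-2.415 to 1.67) and -0.98 (-2.25 to 0.29) leave a difference unresolved. Of all tested genes 1.87% were called between these groups, and nothing about the members is read from that.

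Hybrids showed how these levels stood when both genomes were present. For Txndc8, J2PN embryos had 0, 0.193 and 3.73 CPM as lowest, median and highest values, against 0, 13.8 and 33.1 CPM in B2PN embryos. All 21 J2PN embryos lay below the B2PN median, and B2PN embryo 30 was the only one of 43 with no count. Txndc8 was 20.2-fold lower in J2PN than in B2PN embryos (log2 fold change -4.34 ± 0.45, SE; edgeR quasi-likelihood test, adjusted p = 1.738e-14). Of all 24380 tested genes, 40.2% passed in this comparison and 21.1% were lower in J2PN embryos, so a call by itself was common. At least 10 counts were found in 1 of 21 J2PN embryos and 42 of 43 B2PN embryos.

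Npy followed with 0, 0 and 144.3 CPM in J2PN embryos as lowest, median and highest values, against 0.591, 38.7 and 208.9 CPM in B2PN embryos. It had no count in 11 of 21 J2PN embryos, and counts in all 43 B2PN embryos. In J2PN, 13 of 21 embryos lay below the lowest B2PN embryo, and the 2 J2PN embryos above the B2PN median were embryo 8, with 144.3 CPM, and embryo 10, with 71.7 CPM. Npy was 4.22-fold lower in J2PN than in B2PN embryos (log2 fold change -2.08 ± 0.54, SE; edgeR, adjusted p = 0.00106), and limma voom put it at -4.93 (adjusted p = 3.834e-11). Leaving out J2PN embryo 8 and B2PN embryo 30, the edgeR value was -3.07 for Npy (adjusted p = 3.258e-06) and -4.28 for Txndc8 (adjusted p = 7.308e-15).

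The other 3 genes did not pass between reciprocal 2PN embryos. Serpinb3b had 0, 16.02 and 325.4 CPM in J2PN embryos and 0, 31.5 and 160.4 CPM in B2PN embryos, as lowest, median and highest values. Its log2 fold change was -0.16 ± 0.35 (SE; edgeR, adjusted p = 0.751, interval -0.86 to 0.53), and 16 of 21 J2PN embryos lay below the B2PN median. limma voom called it lower, at -1.21 (adjusted p = 0.0108). Spz1 had 1.96, 24.5 and 148.1 CPM in J2PN embryos and 11.9, 34.2 and 66.3 CPM in B2PN embryos, at -0.29 ± 0.20 (SE; edgeR, adjusted p = 0.239, interval -0.68 to 0.09). The 2 highest J2PN values of Spz1, 79.0 and 148.1 CPM, came from the 2 shallowest libraries, with 962591 and 533276 counts, and without them it was lower in J2PN embryos, at -0.61 (adjusted p = 0.00823). limma voom also called it, at -0.56 (adjusted p = 0.0254). Nat8f2 had 0.793, 77.4 and 215.8 CPM in J2PN embryos and 18.7, 59.3 and 131.8 CPM in B2PN embryos, at 0.38 ± 0.23 (SE; edgeR, adjusted p = 0.184, interval -0.07 to 0.83). Without J2PN embryo 8 and B2PN embryo 30 the edgeR values were -0.12 for Serpinb3b (adjusted p = 0.817), -0.22 for Spz1 (0.391) and 0.40 for Nat8f2 (0.165).

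The listing of the samples falls into 2 runs of accessions, which the labels do not call batches. In run 1, Npy averaged 18.4 ± 38.7 CPM in J2PN embryos (SD, n = 16) and 59.0 ± 49.9 CPM in B2PN embryos (SD, n = 29). In run 2 it averaged 0.837 ± 1.64 CPM (SD, n = 5) and 55.4 ± 48.7 CPM (SD, n = 14) in J2PN and B2PN embryos. Txndc8 averaged 0.727 ± 1.01 and 17.01 ± 7.37 CPM in J2PN and B2PN embryos of run 1, and 0.697 ± 0.966 and 11.4 ± 6.92 CPM in those of run 2. Both genes were lower in J2PN embryos in each run. Summed sperm and testis markers, of which 10 of 11 were in the table, also moved with the cross, at 1.53 to 44.3 CPM in J2PN embryos (Tnp1 and Tnp2 at 0) and 21.3 to 119.3 CPM in B2PN embryos (none at 0). Their part in the difference in Txndc8, itself a gene of spermatids, was not tested.

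**Figure D2:**
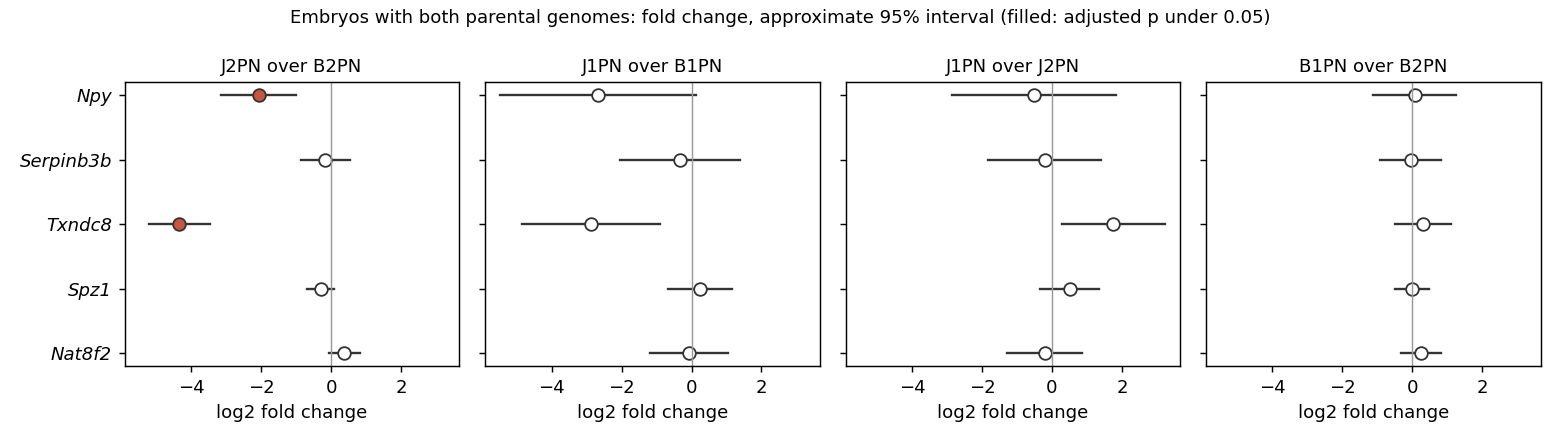
Points give the log2 fold change of each gene between groups of hybrid embryos and lines its approximate 95% interval, from the edgeR fit of all 7 groups. Filled points passed an adjusted p of 0.05: Txndc8 at -4.34 and Npy at -2.08 in J2PN over B2PN.

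The reciprocal 1PN hybrids, with 3 J1PN embryos, pointed the same way for Txndc8 and Npy without passing the test. J1PN embryos 4, 5 and 6 had 2.69, 1.87 and 2.88 CPM of Txndc8, and B1PN embryos had 13.4, 16.3 and 32.8 CPM as lowest, median and highest values. The groups did not overlap, which held for 5.02% of all tested genes, and 3.64% of genes passed the test. The log2 fold change of Txndc8 was -2.88 ± 1.01 (SE; edgeR, adjusted p = 0.0907), against a median of -0.42 over all genes. DESeq2 (adjusted p = 0.00337), limma voom (0.0296) and an edgeR fit of these 2 groups alone (0.00441) called it. For Npy, J1PN embryos 4, 5 and 6 had 12.4, 14.1 and 0.339 CPM, and B1PN embryos 12.1, 55.8 and 136.9 CPM as lowest, median and highest values, at -2.66 ± 1.43 (SE; edgeR, adjusted p = 0.286). Sperm and testis markers summed to 6.16 to 21.9 CPM in J1PN embryos (8 at 0) and 24.2 to 79.7 CPM in B1PN embryos (none at 0).

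For the other members the 1PN hybrids were close to each other or poorly resolved. J1PN embryos 4, 5 and 6 had 42.3, 7.50 and 40.2 CPM of Serpinb3b, against 12.5, 34.2 and 80.0 CPM as lowest, median and highest values in B1PN embryos (log2 fold change -0.33 ± 0.88, SE; edgeR, adjusted p = 0.886). Spz1 had 48.7, 40.6 and 31.2 CPM in J1PN embryos 4, 5 and 6, all inside the B1PN range of 20.8 to 58.9 CPM (0.23 ± 0.47, SE; edgeR, adjusted p = 0.832). Nat8f2 had 97.1, 41.9 and 66.6 CPM in J1PN embryos 4, 5 and 6, inside the B1PN range of 29.6 to 178.0 CPM (-0.08 ± 0.57, SE; edgeR, adjusted p = 0.978). With 3 J1PN embryos the intervals are wide: that of Npy runs from -5.47 to 0.14 and that of Serpinb3b from -2.05 to 1.39.

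The number of pronuclei, the study's own question, was compared within each cross. None of the 5 passed in J1PN against J2PN embryos, with 0.0369% of all genes called, or in B1PN against B2PN embryos, with 0.607% called. At such shares 5 genes without a call are common, so nothing about the members is read from that. With 3 J1PN embryos, J1PN against J2PN also left wide intervals, as for Npy at -2.855 to 1.82. In C57BL/6 x JF1/Ms the log2 fold changes of B1PN over B2PN ran from -0.05 for Serpinb3b to 0.31 for Txndc8, each with adjusted p = 1.0 by edgeR. The interval was narrowest for Spz1, at -0.50 to 0.47, and widest for Npy, at -1.12 to 1.26. In JF1/Ms x C57BL/6 the largest was Txndc8, at 1.76 ± 0.75 (SE; edgeR, adjusted p = 0.401, unadjusted p = 0.0209). The 3 J1PN embryos, at 1.87 to 2.88 CPM, stood above a J2PN median of 0.193 CPM, but these levels rest on 22.5 counts in J1PN and 36 in J2PN embryos in sum, and Txndc8 entered the test through groups where it is higher. Npy stood at -0.52 in J1PN over J2PN embryos, and at 0.46 without J2PN embryo 8 and B2PN embryo 30 (edgeR, adjusted p = 0.907), so its direction there is not resolved. Without those 2 embryos the other values kept their side of the threshold in both comparisons.

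Ordered by mean level in the 7 groups, Npy ran from J1PN uniparental (258.1 CPM) over B1PN (61.4), B2PN (57.8), J2PN (14.2), J1PN (8.94) and P (0.330) to B1PN uniparental embryos (0.0369). Txndc8 began with B1PN (19.1 CPM) and B2PN (15.2), followed by J1PN uniparental (9.61), J1PN (2.48), J2PN (0.720), P (0.0428) and B1PN uniparental embryos (0). Serpinb3b ran from J1PN uniparental (131.3 CPM) over B2PN (41.6), B1PN (40.8), J2PN (35.3) and J1PN (29.99) to P (0.0588) and B1PN uniparental embryos (0.0504). These orders hold for each gene alone, since CPM are not scaled to gene length. Every pair of neighbours in the orders of Npy and Txndc8 overlapped in range, and in that of Serpinb3b all did but J1PN (7.50 to 42.3 CPM) and P embryos (0 to 0.714 CPM).

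Spz1 was ordered as B1PN uniparental (56.7 CPM), P (50.3), J1PN (40.2), B1PN (36.1), B2PN (35.9), J2PN (31.6) and J1PN uniparental embryos (0). Nat8f2 ran from B1PN uniparental (105.9 CPM) over P (91.6), J2PN (84.8), B1PN (74.3), J1PN (68.5) and B2PN (63.0) to J1PN uniparental embryos (1.87). In both genes each of the first 6 groups overlapped in range with its neighbour, J1PN uniparental embryos stood apart from the group before them, and the uniparental C57BL/6 groups had the highest means. As a description, the fitted log2 fold change of P over B2PN embryos was 0.23 ± 0.17 (SE) for Spz1 and 0.30 ± 0.20 (SE) for Nat8f2, and that of B1PN uniparental over B2PN embryos 0.44 ± 0.27 and 0.53 ± 0.32 (SE). In J2PN embryos, which hold a C57BL/6 and a JF1/Ms genome, Spz1 had at least 10 counts in 20 of 21 and Nat8f2 in 20 of 21.

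Across the 121 embryos the levels of the members, as log2(CPM + 1), divided in the same way. Npy correlated with Txndc8 at a Pearson r of 0.85 and with Serpinb3b at 0.74, Txndc8 with Serpinb3b at 0.77, and Spz1 with Nat8f2 at 0.67. Pairs across the 2 patterns lay between -0.31 and -0.07. The embryos share libraries, groups and depth, and the members were chosen for group differences, so these values only describe the table.

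Stage markers moved with some members among 2PN embryos of 1 cross. Over 21 J2PN embryos, Npy rose with the summed oocyte markers (r = 0.80, permutation p = 2e-05, adjusted 0.0004 over 20 relations; Spearman's rho = 0.68, permutation p = 0.00123, adjusted 0.0123). Without the 2 embryos farthest from the median marker sum r was 0.72, within runs 1 and 2 it was 0.82 (n = 16) and 0.85 (n = 5), and without J2PN embryo 8 it was 0.73. The 11 J2PN embryos without Npy counts had 319.1 to 880.8 CPM of the oocyte markers, and every J2PN embryo above that had Npy counts. In B2PN embryos the same relation had r = 0.22 (permutation p = 0.165, adjusted 0.473; rho = 0.14, permutation p = 0.379, adjusted 0.505). Whether the relation differs between crosses was not tested.

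Spz1 rose with the markers of 2-cell transcription over 43 B2PN embryos (r = 0.62, permutation p = 4e-05, adjusted 0.0004; rho = 0.57, permutation p = 0.00016, adjusted 0.0032). It was 0.57 without the 2 farthest embryos, 0.62 without B2PN embryo 30, and 0.69 (n = 29) and 0.53 (n = 14) within runs 1 and 2. In J2PN embryos the same relation had r = -0.16 (permutation p = 0.5065, adjusted 0.84) and rho = -0.19 (permutation p = 0.41, adjusted 0.5125). There r was -0.51 without the 2 farthest embryos, and -0.58 (n = 16) and 0.47 (n = 5) within runs 1 and 2. Whether the relation differs between crosses was not tested. Nat8f2 in B2PN embryos had r = 0.45 with the 2-cell markers (permutation p = 0.00264, adjusted 0.0132) but a rho of 0.40 with an adjusted p of 0.0579. Serpinb3b had r = 0.47 with the oocyte markers in B2PN embryos (permutation p = 0.00243, adjusted 0.0132) and a rho of 0.38 with an adjusted p of 0.0602. The other 16 relations had adjusted p above 0.05 for r.

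**Figure D3:**
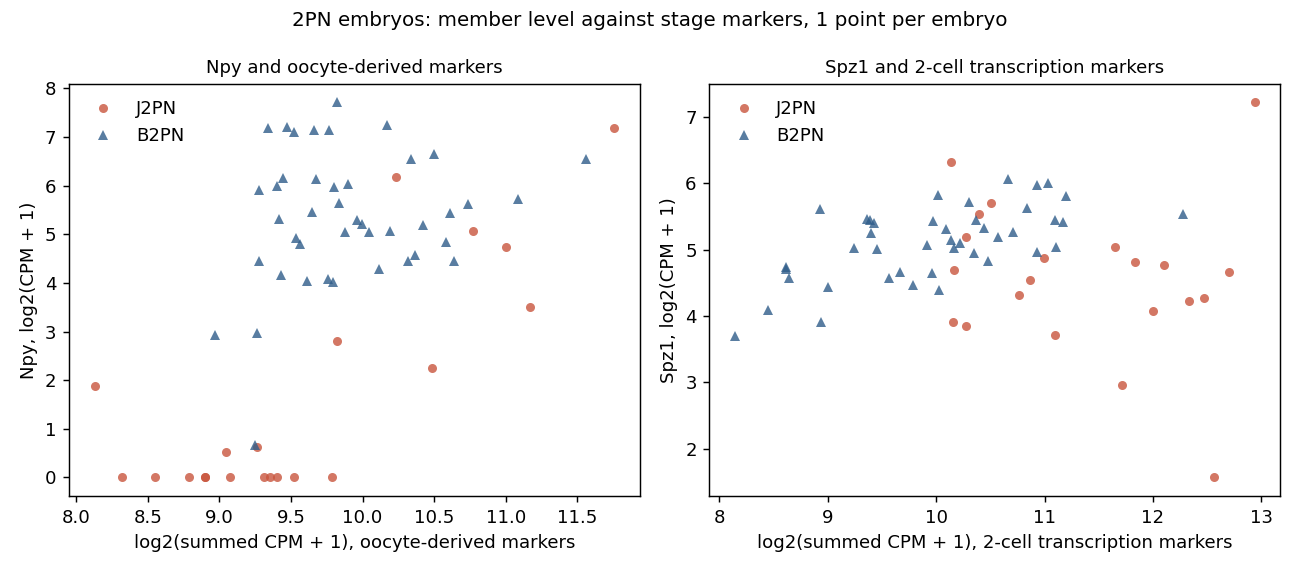
Each point is a 2PN embryo, circles J2PN and triangles B2PN; axes are log2(CPM + 1) of the gene and log2(summed CPM + 1) of the markers. Npy rises with oocyte markers among J2PN embryos (r = 0.80), and Spz1 with 2-cell markers among B2PN embryos (r = 0.62).

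Genes whose pattern over the 121 embryos was most like that of a member were named by their Pearson r. For Npy these were AC110913.1 (0.81) and AC102519.1 (0.78), which carry only clone names, and Igkv9-124 (0.76), an immunoglobulin kappa V segment on chromosome 6, 18.1 Mb from Npy. For Serpinb3b they were AC102081.1 (0.84), AC110913.1 (0.82) and Slc20a2 (0.82), a phosphate transporter that averaged 37.3 ± 37.2 CPM in J1PN uniparental embryos (SD, n = 4) and 1.64 ± 1.72 CPM in P embryos (SD, n = 31).

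For Txndc8 they included Trdv2-2 (0.88), a T cell receptor delta V segment, and Apobec1 (0.82), a cytidine deaminase of RNA. Both differ from Txndc8 in J1PN uniparental embryos, where Trdv2-2 had no count and Apobec1 averaged 0.142 CPM. Trdv2-2 had no count in all 21 J2PN embryos and averaged 12.3 ± 9.75 CPM in B2PN embryos (SD, n = 43). Apobec1 averaged 0.271 ± 0.604 CPM in J2PN embryos (SD, n = 21) and 16.9 ± 14.1 CPM in B2PN embryos (SD, n = 43).

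For Spz1 they were Tbc1d23 (0.78), a Golgi trafficking protein, Dcc (0.76), a netrin receptor, and Colgalt2 (0.76), a collagen galactosyltransferase, and for Nat8f2 Antxr1 (0.82), a receptor for anthrax toxin, Aqp9 (0.69), a water and glycerol channel, and Bola1 (0.68), a mitochondrial protein. Antxr1 had no count in the 4 J1PN uniparental embryos and averaged 73.6 ± 45.3 CPM in P embryos (SD, n = 31). It lies 1.26 Mb from Nat8f2 on chromosome 6, while the others of these 6 genes lie on other chromosomes than their member. Tbc1d23 averaged 16.4 ± 14.2 CPM in J1PN uniparental embryos (SD, n = 4) and 214.4 ± 48.9 CPM in P embryos (SD, n = 31). The likeness came from the same embryos, so these levels carry no test.

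**Figure D4:**
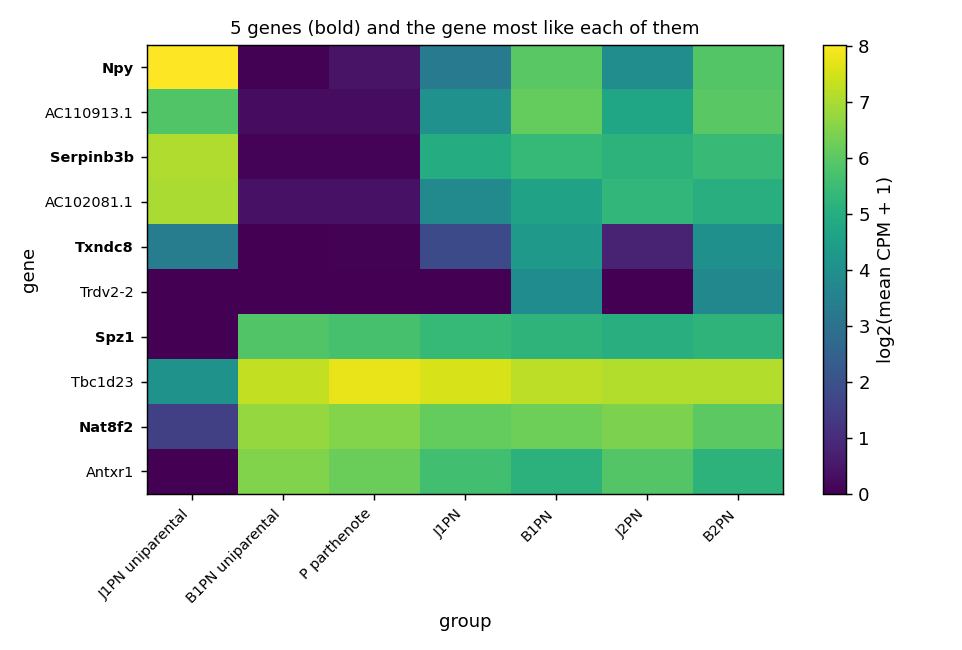
Colour gives log2(mean CPM + 1) of each gene (rows) in each group (columns); the 5 genes are in bold and the gene with the highest r follows each. The genes under Npy and Serpinb3b are dark in B1PN uniparental and P embryos, those under Spz1 and Nat8f2 are darkest in J1PN uniparental embryos, and the one under Txndc8 is bright in B1PN and B2PN embryos.

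Paralogs and neighbours of the members were counted next. Values that are not whole, as the splitting of shared reads gives, were present in 51.7% of embryos with a value of Nat8f2, in 36.5% for Serpinb3b and in 14 of 70 for Txndc8, so which copy was counted is uncertain there. In the Serpinb3 cluster, Serpinb3c, a paralog, averaged 3.02 ± 4.72 CPM in J1PN uniparental (SD, n = 4), 0.0697 ± 0.0754 in B1PN uniparental (SD, n = 8) and 0.00506 ± 0.0282 CPM in P embryos (SD, n = 31), the direction of Serpinb3b. Serpinb3a did not share it, at 18.5 ± 22.6, 15.8 ± 12.6 and 4.33 ± 5.55 CPM in the same order of groups. Serpinb3d was at 0 in those groups.

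In the Nat8 cluster, Nat8f1 averaged 0.734 ± 1.47 CPM in J1PN uniparental (SD, n = 4), 14.6 ± 10.6 in B1PN uniparental (SD, n = 8) and 17.4 ± 12.2 CPM in P embryos (SD, n = 31). Nat8f4, the nearest gene on the side of higher coordinates, averaged 0.0710 ± 0.142, 6.72 ± 4.93 and 4.73 ± 2.92 CPM in the same order of groups. Both were thus low in J1PN uniparental embryos, as Nat8f2 was, while Nat8f3, Nat8f5, Nat8f6, Nat8f7, Nat8 and Nat8b-ps averaged at most 1.06 CPM in every group. Ptges3-ps, a pseudogene and the nearest gene on the other side, averaged 3.29 ± 2.29, 8.87 ± 3.49 and 6.52 ± 2.43 CPM in J1PN uniparental, B1PN uniparental and P embryos. Of all 24380 tested genes 6628 were lower in J1PN uniparental than in P embryos, so this direction is common. Next to Spz1, Serinc5, a membrane protein that restricts retroviruses, had no count in J1PN uniparental embryos and 23.5 ± 15.1 and 16.6 ± 10.7 CPM in B1PN uniparental (SD, n = 8) and P embryos (SD, n = 31), and Zfyve16, an endosomal protein, had at most 1.14 CPM in J1PN uniparental embryos and averaged 7.27 ± 4.09 and 6.25 ± 7.29 CPM in the other two groups. Txn1, the cytosolic thioredoxin 27610 bases from Txndc8, had 23.9 ± 25.1, 12.5 ± 10.9 and 15.7 ± 21.1 CPM in that order, with no such gap.

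Within 0.2 Mb of the members, neighbours were tested between J2PN and B2PN embryos. Of all 24380 tested genes 40.2% passed there, 4664 higher and 5146 lower, so calls near a member are common. Around Txndc8 1 of 2 tested genes was higher in J2PN embryos, Txn1 at 0.95 ± 0.37 (log2 fold change, SE; edgeR, adjusted p = 0.0288), and 1 lower. Around Spz1 0 of 6 were higher and 1 lower, around Nat8f2 3 of 14 higher and 0 lower, and around Serpinb3b 0 of 3 either way. These counts were as many without J2PN embryo 8 and B2PN embryo 30, with Txn1 at 1.01 (adjusted p = 0.0223). The 2 genes listed near Npy had no matched row in the counts, so neither was tested.

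The families of the members were read in the same comparison of J2PN with B2PN embryos, against the 40.2% called overall. In a list of the NPY family and its receptors, which also holds Dpp4, 7 genes had rows and 2 were tested. Pyy, the related peptide YY, was lower at -5.45 ± 0.92 (log2 fold change, SE; edgeR, adjusted p = 6.981e-07), with counts in 9.52% of J2PN and 69.8% of B2PN embryos. Among uniparental embryos Pyy did not go with Npy, at means of 0.163 (J1PN), 3.83 (B1PN) and 11.3 CPM (P). Dpp4, a protease that trims both peptides, was called higher at 2.999 ± 0.76 (adjusted p = 0.000743), on a J2PN mean of 3.17 ± 12.4 CPM (SD, n = 21) against 0.355 ± 1.46 CPM in B2PN embryos (SD, n = 43). The median of Dpp4 was 0 in both groups and 1 J2PN embryo held 56.8 CPM, so that value rests largely on 1 embryo. Of 24 tested genes of the thioredoxin system, 2 were higher and 5 lower, with a median of -0.10 against -0.06 over all genes. They included Txndc2, another thioredoxin of spermatids, at -1.39 ± 0.31 (edgeR, adjusted p = 0.000159), and the mitochondrial peroxidase Prdx3 at -1.78 ± 0.41 (adjusted p = 0.00022). Txndc2 was also lower in J1PN than in B1PN embryos, at -3.24 ± 0.91 (SE; edgeR, adjusted p = 0.0243). Among uniparental embryos it did not go with Txndc8, at means of 19.6 (J1PN), 56.7 (B1PN) and 35.1 CPM (P).

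Of 15 tested clade B serpins 4 were higher and 2 lower in J2PN than in B2PN embryos, with a median of 0.97. The granzyme inhibitor Serpinb9 stood at 3.68 ± 0.69 (log2 fold change, SE; edgeR, adjusted p = 5.781e-06), with counts in 52.4% of J2PN and 23.3% of B2PN embryos. Of 5 tested Nat8 genes 1 was called higher, Nat8, whose counts were found in 9.52% of J2PN and 2.33% of B2PN embryos, at means of 0.199 and 0.0295 CPM. Another was lower, Nat8l, which makes N-acetylaspartate, at -1.80 ± 0.70 (adjusted p = 0.0303). Of 21 basic helix-loop-helix factors 6 were higher and 2 lower, with a median of -0.03. Max, the common partner of the Myc network, was higher at 1.99 ± 0.27 (adjusted p = 6.173e-10), Mxd4 at 1.74 ± 0.22 (adjusted p = 6.93e-11), and Tfec was lower at -2.52 ± 0.65 (adjusted p = 0.000946). Without J2PN embryo 8 and B2PN embryo 30, 3 thioredoxin genes were higher and 5 lower, 8 basic helix-loop-helix factors higher and 2 lower, and the counts of the other families were as above. No family member passed in J1PN against J2PN, B1PN against B2PN or B1PN uniparental against P embryos. Of all genes 0.0369%, 0.607% and 1.87% were called there, so nothing about the families is read from that. In J1PN against B1PN embryos, with 3.64% of all genes called, 2 of 24 thioredoxin genes were lower and no gene of the other families passed.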

How the data were processed

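Single 2-cell embryos were profiled with SMART-Seq v4 and Nextera XT kits, per the labels' protocols. The authors deposited unscaled estimated counts for each gene, with 28.4% of nonzero values not whole. Per the submitters' processing notes, reads were handled with HISAT2 2.0.5, featureCounts 2.0.0 and the build GRCm38. How reads shared by features were split, the strand setting and the annotation release: not given in the sources used here. Of 43421 gene identifiers 43266 matched a symbol. Coordinates and promoters are from RefSeq, GRCm38.p6. Of 125 libraries, 1 labelled dead and 3 of low quality were left out. No 2 libraries looked alike (lowest chi-square per gene 15.0).

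Counts were rounded and tested with edgeR 4.0.16 in R 4.3.3 (quasi-likelihood, TMM, filterByExpr, means of 7 groups), with Benjamini-Hochberg adjustment over 24380 genes and a threshold of 0.05. The SE of an edgeR log2 fold change was derived as its absolute value over the square root of the F statistic. Its 95% interval is a normal approximation from that SE. CPM are counts over the library total. Alternatives were DESeq2 1.42.0, limma 3.58.1 voom, other scaling, filters and subsets of embryos. Intervals of shares are exact (Clopper-Pearson, 95%), and stage relations used 100000 permutations, 2-sided. P-values measure only the spread between embryos.

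The members, lists and named genes were chosen with earlier results of these data known. Named besides the 5 are the 3 genes most alike to each by Pearson r, excluding Gm and Rik models and pseudogenes, the nearest neighbours within 0.2 Mb, cluster paralogs, and up to 4 genes per family with the smallest p. An item that the rule names is not reported here. Python 3.11.15, matplotlib 3.10.9, scipy 1.17.1, pandas 2.3.3 and numpy 2.4.6 were used.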

Additional observations from a re-analysis of the deposited data

Results flagged for a closer look

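Npy in B1PN uniparental embryo 18 was 0.295 CPM while the other 7 embryos of that group were at 0, and it rests on 1 count. Serpinb3b in B1PN uniparental embryo 14 was 0.285 CPM, which also rests on 1 count, with 0.118 CPM in embryo 7 and 0 in the others of its group. Nat8f2 in J1PN uniparental embryo 7 was 7.48 CPM with the other 3 embryos at 0. Of 8 groups checked for a single distant embryo, chance alone would mark about 1 in 20.

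Spz1 was also counted in libraries that entered no comparison. The B1PN embryos 6 and 8, labelled of low quality, had 158.6 and 92.2 CPM, above the highest B2PN embryo at 66.3 CPM. Embryo 8 lay below the highest J2PN (148.1 CPM), B1PN uniparental (103.5 CPM) and P embryos (101.8 CPM).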

How the results depend on the processing

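Of 242 alternative values of single members, 214 kept direction and side of the threshold, 21 turned direction, none of them called, and 7 passed only under the alternative (Serpinb3b and Spz1 in J2PN against B2PN, Txndc8 in J1PN against B1PN). In J2PN against B2PN embryos Npy and Txndc8 passed under every alternative run. The turned values all lay in J1PN against B1PN, J1PN against J2PN and B1PN against B2PN. Leaving out 1 J1PN embryo, J1PN against B1PN ran from -0.65 to 0.17 for Serpinb3b and from -0.40 to 0.22 for Nat8f2, turned without embryo 5. J1PN against J2PN ran from -0.53 to 0.29 for Serpinb3b and from -0.55 to 0.0774 for Nat8f2, turned without embryo 5, and from -0.97 to 0.0564 for Npy, turned without embryo 6. Npy in J1PN against J2PN was also 0.46 without J2PN embryo 8 and B2PN embryo 30, 1.05 with the replicate block and 1.82 with limma voom. limma voom gave 0.82 for Serpinb3b and 0.0905 for Nat8f2 in J1PN against J2PN, 0.0848 for Nat8f2 in J1PN against B1PN and 0.17 for Serpinb3b in B1PN against B2PN. The block gave 1.62 for Nat8f2 in J1PN against J2PN, and -0.0794, -0.0114 and 0.0558 for Npy, Txndc8 and Spz1 in B1PN against B2PN. In that comparison a term for run of listing gave -0.0233 for Npy and 0.0252 for Spz1, and Spz1 stood at 0.0431 with RLE size factors, 0.0414 with DESeq2 and 0.00313 without J2PN embryo 8 and B2PN embryo 30. The causes were not tested.

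Counts of called genes depended more on the setting, and the causes were not tested except that fewer genes or embryos enter some fits. J2PN against B2PN had 9810 calls, 6016 with the 2 groups alone. J1PN against B1PN had 887 (303 higher, 584 lower), 262 to 426 without 1 J1PN embryo, 1447 with limma voom (398 and 1049) and 2037 with DESeq2 (231 and 1806). J1PN against J2PN had 9, 136 without the filter on low counts, 15 to 18 without 1 J1PN embryo, 43 with limma voom, 666 with DESeq2 (5 and 661) and 0 with edgeR on the 2 groups alone (806 genes at unadjusted p under 0.05). B1PN against B2PN had 148, 652 without the filter, 8 with the 2 groups alone, 30 with DESeq2 and 0 with limma voom (799 at unadjusted p under 0.05). B1PN uniparental against P had 457, 1760 without the filter, 770 with the 2 groups alone and 692 with limma voom. The median log2 fold change of all genes in J1PN against B1PN was -0.42, and -0.53 with RLE, -0.49 with DESeq2 and -0.20 with limma voom size factors.

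Embryo numbers do not pair the samples: 2 of 21, 1 of 3, 1 of 11 and 2 of 8 same-numbered pairs correlated above 0.1, and 1 of 21, 1 of 3, 0 of 11 and 3 of 8 embryos correlated best with their own number (J2PN with B2PN, J1PN with J2PN, B1PN with B2PN, B1PN uniparental with P). With the replicate block edgeR called 3551 genes in J2PN against B2PN, and 0 in J1PN against J2PN, B1PN against B2PN and B1PN uniparental against P (761, 178 and 1032 at unadjusted p under 0.05). With it Serpinb3b stood at -1.21 in J2PN against B2PN (adjusted p = 0.0487). J1PN and B1PN share 1 number, so no block could be fitted.

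With at least 10 counts in place of 1, Txndc8 was found in 4.76% in place of 47.6% of J2PN embryos and in 0 in place of 3 of 3 J1PN embryos.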

Other observations

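One further group of values concerns chromosome 6 and was chosen after its values were seen. P embryo 7, the only embryo on the C57BL/6 side with under 1 CPM of Nat8f2 (0.382 CPM), also had 0 CPM of Nat8f1, Nat8f4 and Antxr1, while its Spz1, on chromosome 13, stood at 41.2 CPM. J2PN embryo 5, with 0.793 CPM of Nat8f2, had 0.397 CPM of Antxr1 and 0 CPM of Nat8f4, but 7.34 CPM of Nat8f1 and 15.9 CPM of Spz1. Antxr1 averaged 57.1 ± 42.9 CPM in J2PN embryos (SD, n = 21) and 73.6 ± 45.3 CPM in P embryos (SD, n = 31).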
